A study of Homo sapiens with 5 samples.

Results

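The acyl-CoA synthetases activate fatty acids, and the acyl-CoA binding proteins carry the products. Described here are 9 such genes in human HepG2 cells depleted of LSD2: the long chain synthetase genes ACSL1, ACSL3, ACSL4, ACSL5 and ACSL6, the medium chain synthetase genes ACSM2A and ACSM3, and the binding protein genes DBI and ACBD3. They were chosen from these gene families, not all of whose genes are included, with earlier results of these data known. ACSM2A was also selected on its high value on the array of siRNA 2, so its values are given as a description without a test. Probe sets with a single gene symbol in the platform annotation measured 8 of the 9 genes, among 12893 genes in all, through 17 probe sets. ACSL3 was not analysed here.

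HepG2 is an established line from a human liver carcinoma. LSD2, encoded by KDM1B, removes methyl groups from lysine 4 of histone H3. Each of 3 different small interfering RNAs (siRNAs) against LSD2 was measured on 1 array, and an siRNA against GL3, a luciferase sequence, on 2 arrays. All groups carried an siRNA, given by lipofection to cultures at about 50% confluence in medium with 25 mM glucose and 10% serum, and were harvested 3 to 4 days later. The labels describe control array 2 as a technical repeat of control array 1, so the control was 1 sample. Whether the knockdowns were separate experiments is not stated. In the main comparison p-values rest on the spread between the 3 siRNAs, which may be partly technical, and the control adds none.

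Free fatty acids enter metabolism only after a synthetase has joined them to coenzyme A at the cost of ATP. Long chain acyl-CoA then goes to glycerolipid and phospholipid synthesis or, through the carnitine shuttle, to oxidation in mitochondria. Medium chain synthetases act inside mitochondria, where they also activate aromatic acids for conjugation with glycine in liver and kidney. Acyl-CoA binding proteins hold the long chain esters in solution and shield them from thioesterases.

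The values were taken to be on a log2 scale, an assumption because no source used here states the log base, and were centred on the median of the 5 arrays for each probe set, so they show differences between arrays and no level of expression. The presence of hepatocyte markers could therefore not be checked as a level, and genes could not be ranked by abundance. KDM1B, the targeted gene, stood at -2.60, -1.73 and -1.38 under siRNAs 1, 2 and 3 against the control mean, or -1.90 ± 0.63 (SD, n = 3 siRNAs; limma adjusted p = 0.9999, unadjusted p = 0.0236). Its probe sets differed in size and order. Probe set 1553150_at stood at -1.25, -0.52 and -0.95 under siRNAs 1, 2 and 3, and 227021_at at -3.95, -2.94 and -1.82. Poly-A spike transcripts, added to the RNA ahead of labelling, put control array 1 with siRNAs 1 and 2 and control array 2 with siRNA 3, whose medians lay -1.45 and -1.39 from control array 1 over 24 probe sets. These are called the poly-A array sets below. RNA was extracted from whole cultures, so fewer cells of a kind and less RNA per cell cannot be told apart.

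The measured genes showed no shared direction. Their median difference from the control was 0.20 over 8 genes, and 0.09 without ACSM2A, against -0.02 over all genes. Under siRNA 1 the control was exceeded by 2 of the 8 genes, with a median of -0.36, under siRNA 2 by 6, with a median of 0.61, and under siRNA 3 by 5, with a median of 0.20. Over all 12893 genes, 6011, 6669 and 6617 exceeded it under siRNAs 1, 2 and 3, with medians of -0.04, 0.03 and 0.01. Without ACSM2A, which was selected on siRNA 2, 5 of 7 genes exceeded it under siRNA 2, with a median of 0.28. limma called 0 of the 7 genes tested at an adjusted p of 0.05, where it called 0% of all genes, and 0 of the 7 at an unadjusted p of 0.05, which 1.69% of all genes reached. All 3 siRNA arrays lay above both control arrays for 1 gene, ACSL5, as for 8.63% of all genes. They lay below both for 1 gene, ACBD3, as for 10.1% of all genes. In the other 6 genes the arrays of the groups overlapped.

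**Figure D1:**
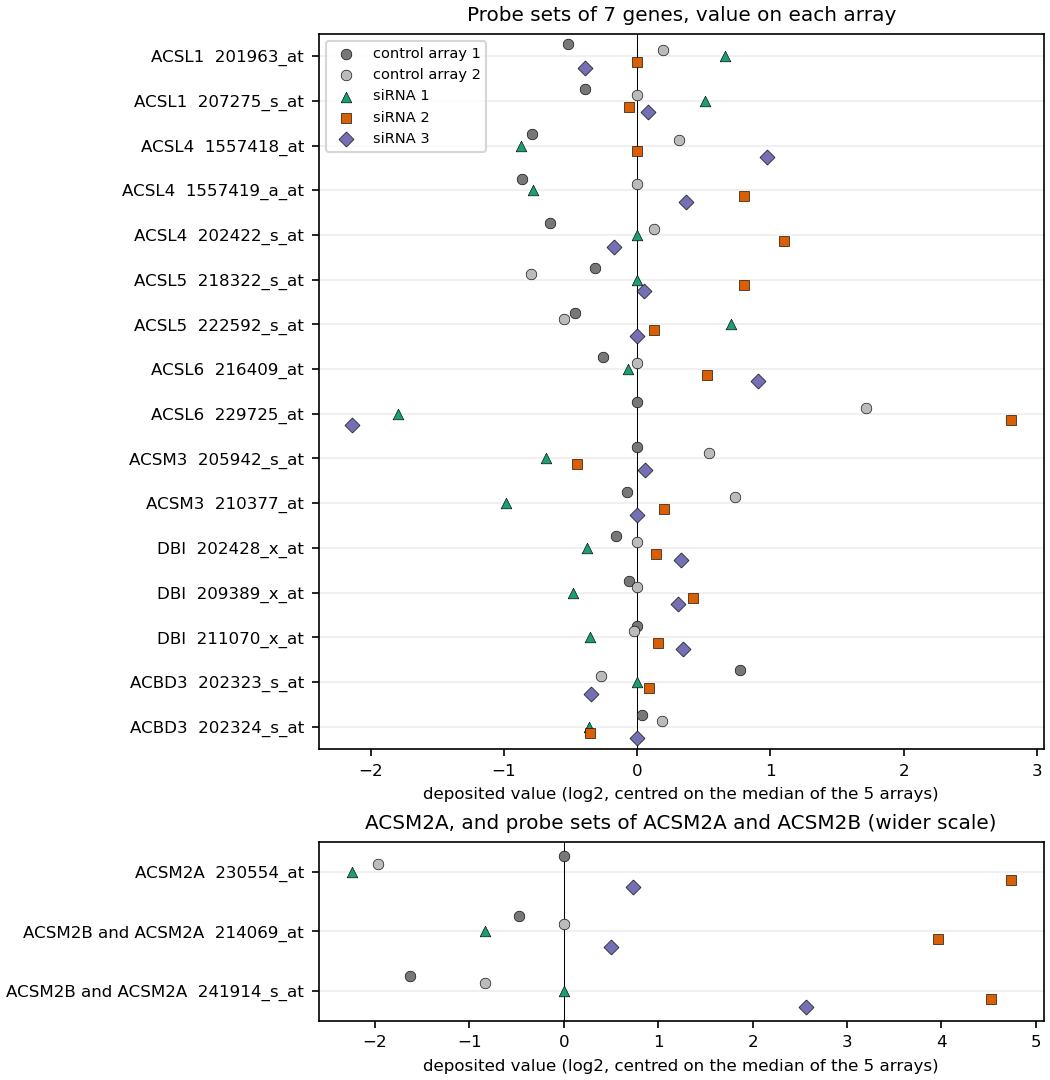
Deposited log2 value of each probe set on each array, centred on the median of the 5 arrays; each row is a probe set, each symbol an array, and symbols are shifted slightly up or down within a row to separate them. Both ACSL5 probe sets have the control arrays at the left, while for ACSM2A the array of siRNA 2 stands far to the right at 4.73 (lower panel, wider scale).

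ACSL5 had the most even difference among the long chain synthetases. Its enzyme lies on the endoplasmic reticulum and mitochondria and is abundant in intestine and liver. The first ACSL5 probe set, 218322_s_at, read -0.32 on control array 1 and -0.79 on control array 2, against 0.00, 0.81 and 0.05 for siRNAs 1, 2 and 3. The second, 222592_s_at, read -0.47 on control array 1 and -0.55 on control array 2, against 0.71, 0.13 and 0.00 for siRNAs 1, 2 and 3. In both probe sets all knockdown arrays lay above both control arrays, but the highest was siRNA 2 in the first and siRNA 1 in the second. The mean of the probe sets gave differences of 0.88, 0.998 and 0.56 from the control, or 0.81 ± 0.23 (SD, n = 3 siRNAs). Against the control array of the same poly-A set they were 0.75, 0.86 and 0.69. limma gave 0.41 as standard error, a 95% interval from -0.24 to 1.87 and an adjusted p = 0.9999 (unadjusted p = 0.104), so the difference did not pass the test. A mean difference of larger size was found in 10.5% of all genes.

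The start regions of 7 of these genes range from few to many CpG dinucleotides, and none was analysed here for ACSM2A or ACSM3. The windows below are the 250 bases before the start of transcription, 5′ to 3′ on the coding strand, from RefSeq (GRCh38.p14). They are shown because ACSL5 was the long chain synthetase whose groups did not overlap, and ACSL4 is the relative with the most CpG, each of which is written in capitals. The ACSL5 windows lie on the plus strand at chr10:112375018-112375267 and chr10:112375955-112376204, and the ACSL4 window on the minus strand at chrX:109733258-109733507.
ACSL5 start 1: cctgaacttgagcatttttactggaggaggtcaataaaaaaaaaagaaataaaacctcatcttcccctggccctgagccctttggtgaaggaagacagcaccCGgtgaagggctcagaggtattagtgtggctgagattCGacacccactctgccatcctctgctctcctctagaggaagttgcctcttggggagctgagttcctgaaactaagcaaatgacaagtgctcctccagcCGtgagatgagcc
ACSL5 start 2: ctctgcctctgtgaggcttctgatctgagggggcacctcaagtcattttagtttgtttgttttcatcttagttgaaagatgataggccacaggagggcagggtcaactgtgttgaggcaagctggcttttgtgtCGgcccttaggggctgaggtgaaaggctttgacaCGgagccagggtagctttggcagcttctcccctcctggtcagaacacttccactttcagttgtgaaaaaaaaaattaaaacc
ACSL4: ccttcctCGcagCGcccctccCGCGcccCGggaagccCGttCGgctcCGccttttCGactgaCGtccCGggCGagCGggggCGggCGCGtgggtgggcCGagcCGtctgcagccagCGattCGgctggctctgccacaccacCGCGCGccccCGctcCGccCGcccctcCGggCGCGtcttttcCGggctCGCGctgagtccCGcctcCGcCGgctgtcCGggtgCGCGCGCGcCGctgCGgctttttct
The ACSL5 windows hold 3 and 2 CpG, with a GC content of 50.0% and 48.8%, and the ACSL4 window holds 42, with 77.2% GC. Over 35116 such windows of all genes the median was 11 CpG and 58.0% GC. At most 3 CpG were found in 29.3% of them, and 42 or more in 1.38%. CG reads the same on both strands, so each dinucleotide was counted once. ACSL1 and ACSL6 each have starts of both kinds, from 4 to 41 and from 2 to 31 CpG. The single windows of ACSL3 and ACBD3 hold 35 and 18, and the 4 windows of DBI hold 15 to 27. The array probe sets do not tell which start was in use, and no measure of binding or methylation at these windows was analysed here.

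ACSL1, the main long chain synthetase of liver and fat and a known target of the receptor PPARA, stood apart from the control mainly under siRNA 1. Its probe set 201963_at read -0.52 on control array 1 and 0.19 on control array 2, against 0.66, 0.00 and -0.39 for siRNAs 1, 2 and 3. Probe set 207275_s_at read -0.39 on control array 1 and 0.00 on control array 2, against 0.51, -0.06 and 0.08 for the siRNAs. The array of siRNA 1 was the highest in both, and the other knockdown arrays lay among or beside the control arrays. The gene stood at 0.76, 0.15 and 0.03 from the control, or 0.31 ± 0.39 (SD, n = 3 siRNAs; limma adjusted p = 0.9999, 95% interval from -0.90 to 1.53). Without siRNA 1 the mean was 0.09, without control array 1 it was 0.04, and without control array 2 it was 0.59.

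ACSL4, whose enzyme prefers arachidonate and other polyunsaturated acids, stood above the control under siRNAs 2 and 3. The probe set 202422_s_at read -0.65 on control array 1 and 0.13 on control array 2, against 0.00, 1.10 and -0.17 for siRNAs 1, 2 and 3. For 1557419_a_at the control values were -0.86 and 0.00, then -0.78, 0.80 and 0.37, and for 1557418_at they were -0.79 and 0.31, then -0.87, 0.00 and 0.97. The array of siRNA 2 was thus the highest in a pair of probe sets and that of siRNA 3 in the other. Control array 1 was lower than control array 2 in all 3 probe sets, by 0.91 in their mean, a gap exceeded by 12.5% of all genes. The gene stood at -0.24, 0.95 and 0.70 from the control mean, or 0.47 ± 0.63 (SD, n = 3 siRNAs; limma adjusted p = 0.9999, 95% interval from -1.05 to 1.99). Leaving out control array 1 gave a mean of 0.01, and leaving out control array 2 gave 0.93. Against the control array of the same poly-A set the mean of the probe sets stood above it under all 3 siRNAs, at 0.22, 1.40 and 0.24. Single probe sets did not all do so. There 1557418_at stood at -0.08 under siRNA 1 and 202422_s_at at -0.30 under siRNA 3, while all other values were positive.

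The probe sets of ACSL6, a synthetase gene best known from brain, where it serves docosahexaenoate, disagreed with each other. Probe set 216409_at read -0.26 on control array 1 and 0.00 on control array 2, against -0.07, 0.52 and 0.91 for siRNAs 1, 2 and 3. Probe set 229725_at read 0.00 on control array 1 and 1.72 on control array 2, against -1.79, 2.80 and -2.14 for the siRNAs. The first gave a mean difference of 0.59 and the second of -1.24, where siRNA 2 stood above the control and siRNAs 1 and 3 below it. Their mean, -0.33 ± 1.42 (SD, n = 3 siRNAs; limma adjusted p = 0.9999, 95% interval from -3.16 to 2.51), therefore stands for neither probe set.

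Among the medium chain synthetases, ACSM2A had the highest difference from the control of all 12893 genes under siRNA 2, which is what it was selected on. Its enzyme activates medium chain acids and benzoate in mitochondria. Its probe set, 230554_at, read 0.00 on control array 1 and -1.97 on control array 2, against -2.25, 4.73 and 0.73 for siRNAs 1, 2 and 3. The array of siRNA 1 was the lowest of the 5, and that of siRNA 2 was 4.00 above the next highest, siRNA 3. Against the control mean the values were -1.26, 5.72 and 1.71, so the mean of 2.06 ± 3.50 (SD, n = 3 siRNAs) rested on siRNA 2 and was 0.23 without it. It was 3.72 without siRNA 1, 3.04 without control array 1 and 1.07 without control array 2. If the base is 2, as assumed, 5.72 corresponds to 52.6-fold. Control array 2 lay at -1.97 from control array 1, a gap exceeded in 3.41% of all genes. The siRNA arrays spanned 6.98, which 0.0465% of genes exceeded. This span contains the siRNA 2 value on which ACSM2A was selected, so its small share follows from the selection.

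A further pair of probe sets is annotated to both ACSM2A and its near-identical neighbour ACSM2B, so it cannot be assigned to either gene, and the single-symbol probe set may likewise pick up both transcripts. Probe set 214069_at read -0.47 on control array 1 and 0.00 on control array 2, against -0.83, 3.96 and 0.50 for siRNAs 1, 2 and 3. Probe set 241914_s_at read -1.63 on control array 1 and -0.83 on control array 2, against 0.00, 4.52 and 2.57 for the siRNAs. In each of them the array of siRNA 2 was again the highest, at 4.20 and 5.75 above the control mean, or 18.4-fold and 53.9-fold on the same assumption. Under siRNA 3 both also stood above both control arrays. Under siRNA 1 they parted, at -0.60 and 1.23. These probe sets were hybridised on the same arrays and are not further replicates.

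Of the genes near ACSM2A on chromosome 16, the 4 measured on their own stood below the control under siRNA 2. Of all 12893 genes 6669 stood above it under this siRNA, so values below it were not particular to these neighbours. In the order of the RefSeq annotation, ACSM5 precedes ACSM2A, and ACSM2B, ACSM1, ACSM3, THUMPD1 and ERI2 follow it among protein-coding genes. Under siRNA 2 ACSM5, another medium chain synthetase gene, stood at -0.81 from the control, ACSM3 at -0.42, THUMPD1 at -0.17 and ERI2 at -0.57. The adjacent ACSM2B, and ACSM1, were not analysed by themselves here, so whether ACSM2B shares the value of ACSM2A cannot be told from these probe sets.

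ACSM3 stood below the control mean under each siRNA, as for 18.2% of all genes. Its enzyme is a mitochondrial medium chain synthetase. Probe set 205942_s_at read 0.00 on control array 1 and 0.54 on control array 2, against -0.68, -0.45 and 0.06 for siRNAs 1, 2 and 3. Probe set 210377_at read -0.08 on control array 1 and 0.74 on control array 2, against -0.99, 0.20 and 0.00 for the siRNAs. Control array 2 was the highest and siRNA 1 the lowest in both, and siRNA 3 lay between the control arrays. In 210377_at siRNA 2 also lay between them, at 0.28 from the control array of its poly-A set. The gene stood at -1.13, -0.42 and -0.27, or -0.61 ± 0.46 (SD, n = 3 siRNAs; limma adjusted p = 0.9999, 95% interval from -1.90 to 0.69). Within the poly-A sets it stood at -0.79, -0.08 and -0.61. Leaving out control array 1 gave a mean of -0.95, leaving out control array 2 gave -0.27, and leaving out siRNA 1 gave -0.35.

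**Figure D2:**
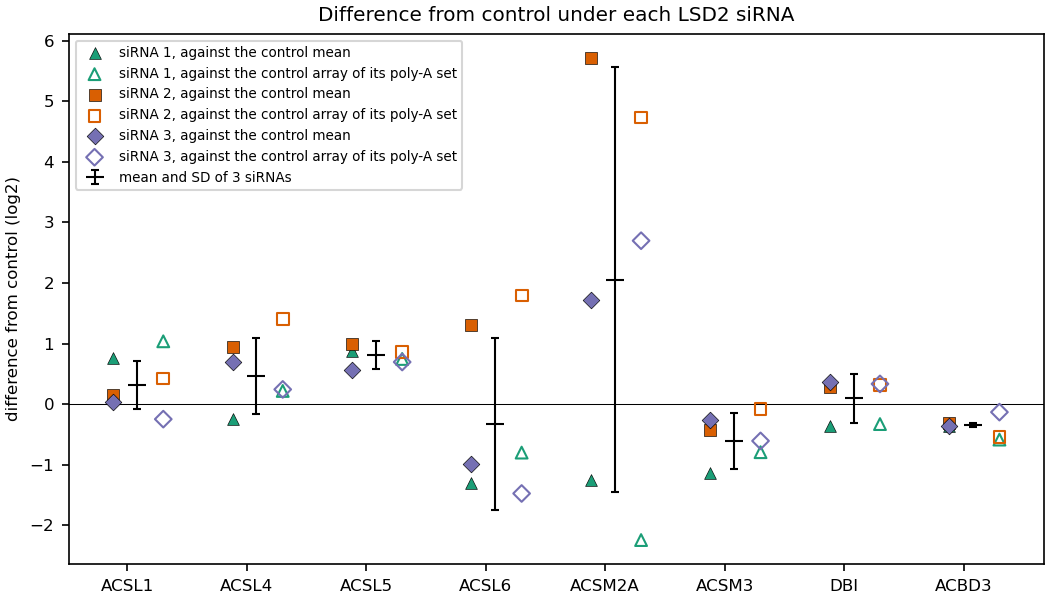
Difference from control in log2 for each measured gene; filled symbols are each siRNA against the mean of the control arrays, open symbols each siRNA against the control array of its poly-A set, and the bar is the mean with the SD of 3 siRNAs. Filled symbols lie between 0.56 and 0.998 for ACSL5, between -0.36 and -0.32 for ACBD3 and between -1.26 and 5.72 for ACSM2A, and open symbols between 0.69 and 0.86, -0.59 and -0.13, and -2.25 and 4.73.

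The binding protein gene DBI separated siRNA 1 from the other siRNAs by a small amount. DBI encodes the small cytosolic acyl-CoA binding protein, also known as the diazepam binding inhibitor. Its 3 probe sets, 202428_x_at, 209389_x_at and 211070_x_at, carry the suffix of probes that can also bind other transcripts, so they are uncertain as a measure of DBI alone. Their mean differences were 0.11, 0.11 and 0.06, and their average value was -0.07 and -0.01 on the controls, against -0.40, 0.24 and 0.33 under siRNAs 1, 2 and 3. The control arrays were 0.07 apart, with siRNA 1 below both and siRNAs 2 and 3 above both. The differences of -0.36, 0.28 and 0.37 gave a mean of 0.09 ± 0.40 (SD, n = 3 siRNAs; limma adjusted p = 0.9999, 95% interval from -1.13 to 1.31). DBI was the member with the smallest gap between control arrays, and 87.5% of all genes had a wider one.

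ACBD3, a Golgi protein gene whose product recruits the lipid kinase PI4KB, was lower than the control under each siRNA. The mean of its probe sets was 0.40 and -0.04 on the controls, against -0.18, -0.13 and -0.17 under siRNAs 1, 2 and 3. All knockdown arrays lay below both control arrays. The differences of -0.36, -0.32 and -0.36 gave -0.34 ± 0.03 (SD, n = 3 siRNAs), and 99.7% of all genes had a wider span between siRNA arrays. Against the control array of the same poly-A set the differences were less even, at -0.59, -0.54 and -0.13. The probe sets were also less even than their mean. Probe set 202324_s_at read 0.04 on control array 1 and 0.19 on control array 2, against -0.36, -0.36 and 0.00 for the siRNAs, all lower, while 202323_s_at read 0.77 on control array 1 and -0.27 on control array 2, against 0.00, 0.09 and -0.35 for the siRNAs, and there the groups overlapped. The limma interval ran from -1.31 to 0.62, with an adjusted p = 0.9999. Leaving out control array 1 gave -0.12, and leaving out control array 2 gave -0.57.

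**Figure D3:**
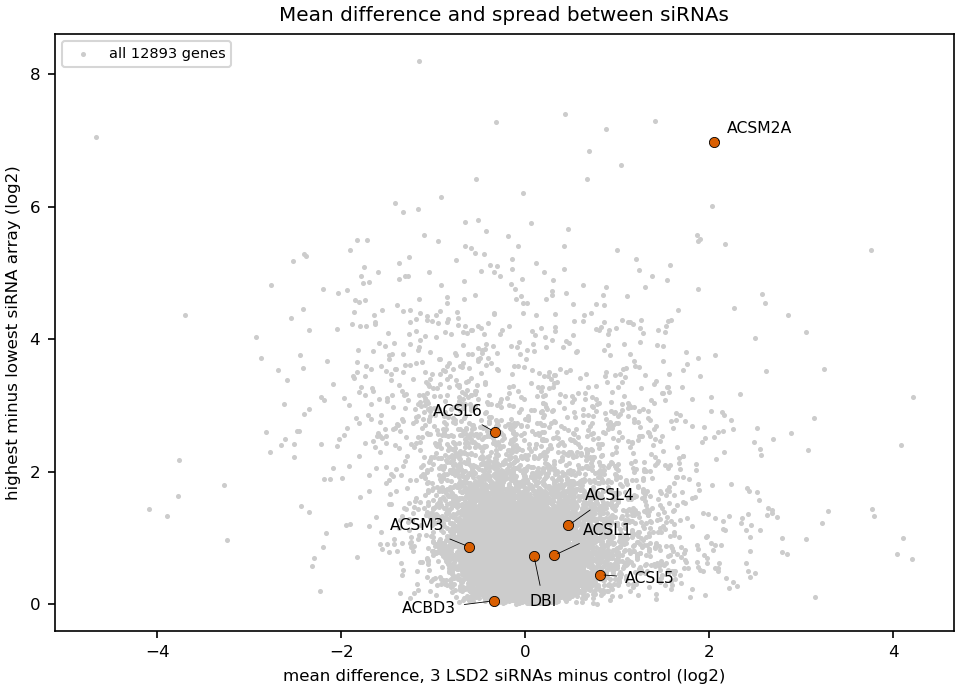
Mean difference between the 3 LSD2 siRNAs and the control (x axis, log2) against the distance between the highest and lowest siRNA array (y axis, log2), with each grey point a gene and the 8 measured members in orange. ACSM2A lies at 2.06 and 6.98, whereas ACBD3 lies near the bottom at -0.34 and 0.05, and ACSL5 at 0.81 and 0.44.

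The likeness of patterns was measured as the Euclidean distance over the 5 arrays between values centred on each gene's median, with no statement on shared function. The genes nearest to ACSM2A were ERP27 at 2.33, DKK4 at 2.44 and NTS at 2.81, all with their highest value under siRNA 2, at 2.79, 5.49 and 3.42. No gene came closer. The distance to ACSM2A depends largely on the siRNA 2 value on which ACSM2A was selected, so high values there follow from the selection. ACSL5 was nearest to GSS, the glutathione synthetase gene, at 0.20, ACSL1 to SRD5A3-AS1 at 0.17, ACSL4 to NPSR1-AS1 at 0.17, ACSL6 to MITF at 0.50, ACSM3 to ELP2 at 0.17, DBI to ZPR1 at 0.05 and ACBD3 to UBXN1 at 0.08. Among the members themselves DBI and ACBD3 were the closest pair, at 0.83.

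Hepatocyte markers were lower than the control under siRNA 1 and higher under siRNAs 2 and 3 in their median. Of 8 such markers 7 were measured, and their median differences were -0.39, 0.60 and 0.58 under siRNAs 1, 2 and 3. Their values summed to -1.97 on control array 1 and 0.30 on control array 2, against -5.63, 7.27 and 4.46 for siRNAs 1, 2 and 3. ALB, the albumin gene, stood at -2.02, 3.03 and 2.69 and TTR, the transthyretin gene, at -1.65, 3.16 and 0.39, both lowest under siRNA 1 and highest under siRNA 2, as was ACSM2A. The other 5 markers did not have this order. APOA1 stood at -0.41, 0.60 and 1.41, AFP at -0.39, -0.33 and 0.22, and APOB at -0.09, 0.01 and 0.61, each highest under siRNA 3. SERPINA1 stood at 0.06, 1.57 and 0.58, with its lowest value on control array 2, and FOXA2, a liver transcription factor gene, at -0.29, 0.06 and -0.60, lowest under siRNA 3. Markers of other cell types were followed too. Of 6 fibroblast markers the 4 measured summed to -0.32 and -0.82 on the controls, against 3.09, -1.67 and -3.65 under the siRNAs, and of 4 leukocyte markers the 3 measured to -0.85 and -0.70 on the controls, against 0.15, 1.26 and -0.42. These sums join markers of opposite sign. DCN, with a mean difference of 1.03, and CD14, with 1.61, lay above both control arrays under all 3 siRNAs, as for 8.63% of all genes. LUM, with -1.29, and CD3E, with -0.56, lay below both, as for 10.1%. For the others the arrays overlapped. COL1A1 stood at 3.32, 1.27 and -0.84 from the control under siRNAs 1, 2 and 3. PDGFRB stood at 1.30, -2.54 and -2.27, and PTPRC at 0.32, 0.23 and -0.38. Of 4 endothelial markers the 1 measured, PECAM1, read 0.18 and 0.09 on the controls, against 0.13, -0.93 and 0.24. Because values are centred, none can be said to be at 0, and the part of these markers in the values of ACSM2A was not tested.

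Other genes of acyl-CoA handling were described from 8 lists, which held 92 genes, of which 60 were measured. The lists were chosen with earlier results of these data known, so their medians and counts are a description and no test of enrichment. limma called 0 of them in either direction, and 0 reached an unadjusted p of 0.05. The carnitine shuttle, which carries acyl groups into mitochondria, had a median difference of 0.74 over 5 genes, against -0.02 over all genes. In 4 of the 5, all but CPT1A, every knockdown array lay above both control arrays, as for 8.63% of all genes. CRAT, the carnitine acetyltransferase gene, read -0.94 on control array 1 and -0.24 on control array 2, against 0.00, 1.69 and 0.39 for siRNAs 1, 2 and 3, or 1.28 ± 0.88 (SD, n = 3 siRNAs; limma adjusted p = 0.9999). CPT2, which re-forms acyl-CoA in the matrix, stood at 0.74 ± 0.49 (limma adjusted p = 0.9999). CPT1A, the outer membrane enzyme, stood at -1.02, 1.02 and 1.48 under siRNAs 1, 2 and 3. SLC25A20, the carrier of the inner membrane, stood at 0.84 ± 0.56 and CROT, the peroxisomal octanoyltransferase gene, at 0.73 ± 0.65. These last 3 genes were named after their values were seen.

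The 13 other synthetase genes measured had a median of 0.07, with 2 above the control mean under all 3 siRNAs, as for 17.9% of all genes, and 1 below it, SLC27A1, named after its values were seen, as for 18.2%. ACSS2, the cytosolic acetyl-CoA synthetase gene, read -0.32 on control array 1 and -0.34 on control array 2, against 0.00, 1.12 and 0.34 for the siRNAs, all above both control arrays, or 0.82 ± 0.57 (SD, n = 3 siRNAs; limma adjusted p = 0.9999). ACSS3 stood at 0.18 ± 0.18 with overlapping arrays. Of the 4 other binding protein genes, 2 stood above the control mean under all 3 siRNAs and 0 below it, and the list had a median of -0.07. The 2 were ECI2, which joins an acyl-CoA binding domain to an enoyl-CoA isomerase, at 0.60 ± 0.30 and ACBD5, a peroxisomal tether gene, at 0.27 ± 0.31. The 7 genes measured from the thioesterase list, which includes BAAT, had a median of -0.08, and none had the same sign under all 3 siRNAs. Of all genes 17.9% stood above the control mean under all 3 siRNAs and 18.2% below it.

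Genes tied to single members gave mixed values. The glycine conjugation list, which takes the products of ACSM2A, had a median of -0.23 over 3 genes, and GLYAT, the glycine acyltransferase gene, stood at -0.15, -0.51 and -0.02 under siRNAs 1, 2 and 3. The list of ferroptosis and polyunsaturated phospholipids, in which ACSL4 takes part, had a median of 0.10 over 9 genes. In it 2 of the 9 genes stood above the control mean under all 3 siRNAs, as for 17.9% of all genes, and 0 below it, as for 18.2%. They were LPCAT3, which puts polyunsaturated acyl-CoA into phospholipids, at 0.33 ± 0.18 (SD, n = 3 siRNAs), and AIFM2, a ferroptosis suppressor gene, at 0.43 ± 0.26. For LPCAT3 all knockdown arrays lay above both control arrays, as for 8.63% of all genes. PPARA and its targets had a median of 0.34 over 11 genes, of which 5 stood above the control mean under all 3 siRNAs, as for 17.9% of all genes, and 1 below it, as for 18.2%. Besides ANGPTL4 and HADHA these were RXRA, ACADM and EHHADH above and the lipid droplet gene PLIN2 below, at -0.27 ± 0.10, the last 4 named after their values were seen. ANGPTL4, a secreted inhibitor of lipoprotein lipase, stood at 1.09, 0.60 and 0.57, and HADHA, a subunit of the mitochondrial trifunctional protein, at 0.34 ± 0.13. The partners of DBI and ACBD3 had a median of -0.07 over 8 genes, with 2 above the control mean under all 3 siRNAs and 0 below it. Among them STAR, which brings cholesterol to the inner mitochondrial membrane, read -0.75 on control array 1 and -0.85 on control array 2, against 0.00, 0.33 and 1.68 for the siRNAs, and PI4KB stood at 0.29 ± 0.23.

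**Figure D4:**
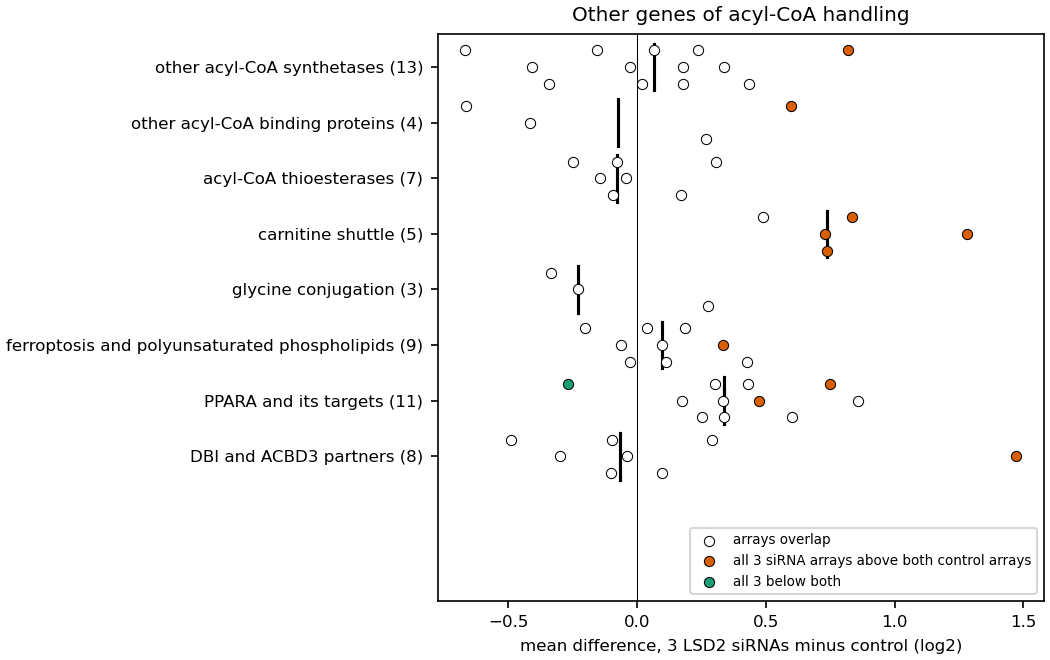
Mean difference between the 3 LSD2 siRNAs and the control in log2 (x axis) for each measured gene of 8 lists, with the number measured after each list name and the black bar at the list's median; height within a list has no meaning. The carnitine shuttle has its median at 0.74, with 4 of 5 genes in orange (all knockdown arrays above both control arrays), and the other medians lie between -0.23 and 0.34.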

How the data were processed

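RNA from 5 samples was labelled with a 3′ in vitro transcription kit and hybridised to GeneChip arrays. MAS5 made the signals, per the submitters' processing notes. Deposited was a table taken here as log2; it ran from -7.05 to 7.47, and each of its 30137 probe sets had a median of exactly 0. The log base, scaling and any filter on probe sets are not given in the sources used here. Dim probe sets, which MAS5 measures with more noise, could not be recognised, and the number of arrays limits precision.

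Platform annotation gave 1 symbol to 24151 probe sets, several to 1175 and none to 4753; 58 were control probe sets. Values of a gene's probe sets were averaged, giving 12893 genes. The control arrays were averaged, and limma 3.58.1 (R 4.3.3; lmFit, eBayes, two-sided, 2 residual degrees of freedom) compared 3 siRNAs with that sample, with Benjamini-Hochberg adjustment over all genes at 0.05. The script was tested on simulated data. The members and lists were chosen with earlier results of these data known. Array sets were split at a poly-A median of -0.7 from control array 1. Named genes were all members, KDM1B, up to 2 genes per list with the largest weakest difference of 1 sign, and nearest patterns. Alternatives covered normalization, array sets, probe sets, blocks and single arrays. Tables and plots used pandas 2.3.3 and matplotlib 3.10.9.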

Additional observations from a re-analysis of the deposited data

How the results depend on the processing

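limma called 0 genes under all 12 alternatives with 1 value per gene and 0 of 24151 probe sets fitted separately, and between 86 and 707 features reached an unadjusted p of 0.05. The median of the measured members lay between 0.02 and 0.38 when single arrays were left out, and at 0.20 to 0.27 with separate control arrays, quantile normalization, the poly-A set as a block, single probe sets per gene or each probe set alone. It was 0.61 in the first poly-A set alone, and 0.09 over the 3 members whose control arrays differed by under 0.5.

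The differences of ACSL1, ACSL4, ACSL5, ACSM3 and ACBD3 kept their sign under every alternative that included them. Without control array 1, that of ACSL1 fell to 0.04 and that of ACSL4 to 0.01. ACSL1, ACSL4, ACSL6, ACSM3 and ACSM2A were left out where control arrays had to differ by under 0.5. ACSM2A kept its sign elsewhere, which its selection on siRNA 2 favoured, and stood at 0.23 without siRNA 2. ACSL6 turned to 0.50 in the first poly-A set alone, to 0.59 with probe set 216409_at alone or with 1 probe set chosen by suffix, and to 0.16 without siRNA 1, 0.0016 without siRNA 3 and 0.17 without control array 2; leaving out single arrays gave -1.14 to 0.17. DBI turned to -0.0089 in the first poly-A set alone and to -0.0424 without siRNA 3; leaving out single arrays gave -0.0424 to 0.32. The cause was not tested. In an alternative chosen after seeing the data, ACSM2A averaged with the shared probe sets stood at 2.37.

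The title numbers do not pair the arrays: the control number marks a technical repeat and the knockdown number an siRNA. With the number as a replicate block, limma called 0 genes, the median was 0.18, ACSL6 stood at 0.0016 and DBI at -0.0424.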
